A study of Mus musculus with 12 samples.

Results

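SOX2 occupancy was examined at 10 genes of Nodal and BMP signalling, out of 21887 protein-coding genes placed on 21 chromosomes. The genes were listed by their known roles: the ligands Nodal and Bmp4, the Nodal co-receptor gene Tdgf1, the antagonists Lefty1 and Lefty2, the receptor-regulated Smads Smad2 and Smad3, the inhibitory Smad Smad7, the corepressor Skil and the target Id1. A SOX2 region, meaning a stretch of the genome where the submitters found more SOX2 ChIP reads than input reads, was counted for a gene when its midpoint lay within 50 kb of the gene's span. Gene spans came from RefSeq, and all coordinates are on mm10.

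The study mapped SOX2, a transcription factor of pluripotent cells, by chromatin immunoprecipitation and sequencing in E14 cells, a line of mouse embryonic stem cells. There were 4 groups of 3 libraries each: SOX2 ChIP of mitotic cells, input of mitotic cells, SOX2 ChIP of asynchronous cells and input of asynchronous cells. Mitotic cells had been held overnight with nocodazole, which blocks the spindle, then fixed, stained and sorted for the mitotic histone mark H3S10p, so that they differ from asynchronous cells in the drug and the sort as well as in the cell cycle. The medium of all groups held 10% serum, leukemia inhibitory factor and a pair of kinase inhibitors, 3 μM CHIR99021 against GSK3 and 0.8 μM PD184352 against MEK. The 3 replicates of a condition had been pooled before regions were called, which gave 84 mitotic and 10351 asynchronous regions, the mitotic ones with the looser q-value tag (0.05, against 0.01 for asynchronous cells). The lists hold positions only, with no height, score or read count, and the depth is unknown. No value below therefore has a replicate error. A peak list holds no expression, so the cell type could be looked at only through its loci: Sox2, Pou5f1, Nanog, Esrrb, Klf2 and Tfcp2l1 had 0 mitotic regions each, and 3, 6, 3, 6, 3 and 4 asynchronous regions within 50 kb. Beside them, 0.836% of all protein-coding genes had a mitotic region within 50 kb and 7.35% had at least 3 asynchronous ones.

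Nodal is a secreted ligand of the TGF-beta family that acts through activin receptors and needs the co-receptor Cripto, the product of Tdgf1. The activated receptors phosphorylate SMAD2 and SMAD3, which enter the nucleus and bind DNA with partner factors. BMP4 acts through its own receptors and other Smads, and the Id genes are among its best known targets in embryonic stem cells. Both branches induce their own inhibitors: the Lefty proteins block Nodal outside the cell, SMAD7 blocks the receptors, and SKIL holds back Smad complexes in the nucleus.

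Of the 10 genes, 0 had a mitotic SOX2 region within 50 kb and 8 had an asynchronous one. Over all protein-coding genes, 0.836% had a mitotic region within 50 kb and 45.5% an asynchronous one. Smad7 had 4 asynchronous regions, and Lefty1 and Lefty2 shared 3. The ligand genes Nodal and Bmp4, the corepressor gene Skil and the target Id1 had 1 each, all within 10 kb. By role, the inhibitors thus differed among themselves, from 1 at Skil to 4 at Smad7. Among the Smads that transmit the signal, Smad3 had 1 region near the edge of the window and Smad2 had 0, and the co-receptor gene Tdgf1 had 0. These are counts of listed regions; they were set beside the shares over all genes and not tested, since the genes were chosen with earlier results of these data known.

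**Figure D1:**
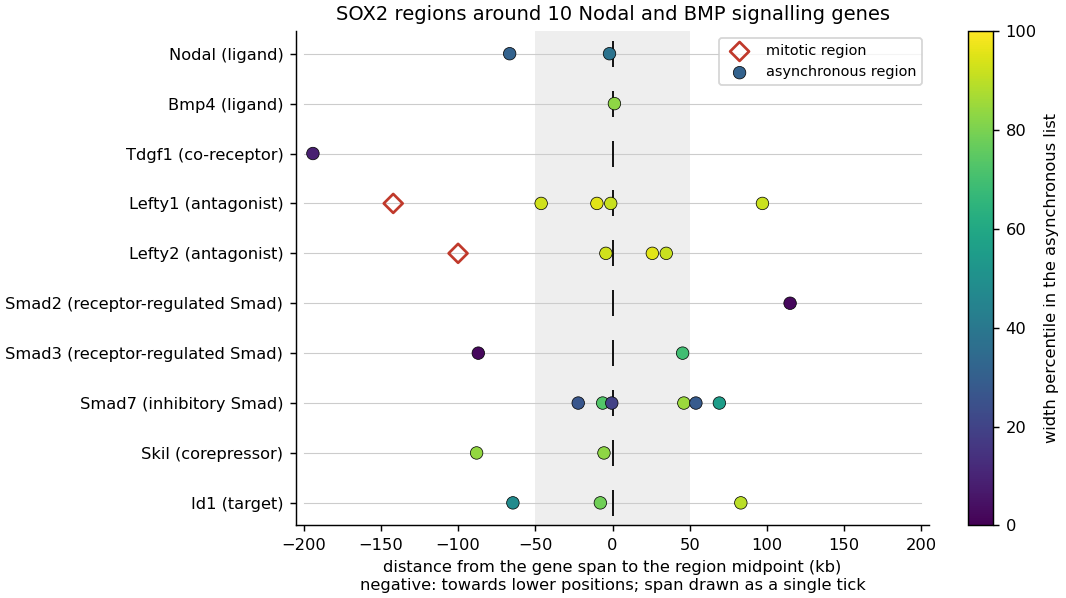
Distance in kb from each gene's span to the midpoints of the SOX2 regions around it, with negative values towards lower chromosome positions and the 50 kb window in grey; regions within 100 kb are drawn, or the nearest one where there is none and it lies on the axis. Open diamonds are mitotic regions and circles are asynchronous regions coloured by the percentile of their width. The single mitotic region in the plot lies 142 kb from Lefty1 and 100.0 kb from Lefty2, and asynchronous regions fall in the window of 8 of the 10 genes.

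The ligand genes each had 0 mitotic regions and 1 asynchronous region just upstream of the gene. At Nodal (chromosome 10, 61417972 to 61425338, plus strand) the asynchronous region lay at 61415905 to 61416161. Its midpoint was 1.94 kb upstream of the start, and its 257 bp put it at percentile 38.2 of the widths in the asynchronous list. A further region was 66.6 kb away on the same side, inside Pald1. At Bmp4 (chromosome 14, 46383525 to 46390669, minus strand) the asynchronous region lay at 46391695 to 46392125, 1.24 kb upstream of the start, and was wider, at 431 bp and percentile 83.2. It was the only asynchronous region within 100 kb of Bmp4, and Bmp4 was the only protein-coding gene within 50 kb of it. Of all protein-coding genes, 17.5% had an asynchronous region as near as that of Nodal and 16.8% one as near as that of Bmp4.

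The promoters of both ligand genes are shown because the nearest asynchronous regions ended short of them. They are the 250 bases before the annotated start, read 5′ to 3′ on the strand of the gene from a RefSeq table of GRCm38.p6 (mm10). No base of either window lay in a listed region. Capitals mark ACAAAG, a core sequence of SOX factors, on either strand. The Nodal window is at chr10:61417722-61417971 and the Bmp4 window at chr14:46390670-46390919.

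Nodal: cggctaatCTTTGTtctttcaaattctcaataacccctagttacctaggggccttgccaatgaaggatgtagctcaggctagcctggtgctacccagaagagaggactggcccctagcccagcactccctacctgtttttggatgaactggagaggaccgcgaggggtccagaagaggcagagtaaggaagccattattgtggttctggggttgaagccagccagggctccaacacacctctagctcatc

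Bmp4: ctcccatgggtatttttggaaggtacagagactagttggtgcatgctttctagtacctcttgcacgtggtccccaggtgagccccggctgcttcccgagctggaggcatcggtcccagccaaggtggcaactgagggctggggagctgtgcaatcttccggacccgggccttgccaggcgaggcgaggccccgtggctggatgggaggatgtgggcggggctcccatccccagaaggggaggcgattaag

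The Nodal window held 1 match, CTTTGT on the printed strand, 242 to 237 bases before the start; 16.5% of 32851 RefSeq promoter windows of the same length held ACAAAG. The other letters searched on both strands were ACAATG, a further SOX core (10.7% of all windows), the POU octamer ATGCAAAT (1.6%), the shortened SOX-POU composite ATTGTNATG (0.828%), the SMAD letters GTCTAGAC (0.167%) and CAGACA (17.1%), the BMP Smad element GGCGCC (9.59%) and the FOXH1 letters TGTGGATT (0.718%). None of them was found in these windows of Nodal or Bmp4, and the match in Nodal overlapped no other motif. A match of letters is no binding site, and the bases under the asynchronous regions of Nodal and Bmp4 were not read here.

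Tdgf1, the gene of the co-receptor Cripto, had 0 mitotic and 0 asynchronous regions within 50 kb. The gene lies on chromosome 9 at 110939608 to 110946158 on the minus strand. Its nearest asynchronous region was 194 kb away, at 110745444 to 110745635, inside Pth1r, and at 192 bp it was narrow (percentile 8.98). Of all protein-coding genes, 79.0% had an asynchronous region as near as this or nearer. The promoter window of Tdgf1, at chr9:110946159-110946408, is shown beside those of the ligand genes. Like the Bmp4 window, it held none of the letters searched. Its GC content was 42.0%, against 53.2% in the Nodal window and 63.2% in the Bmp4 window. The Smad3 window, not printed, also held none of the letters and had a GC content of 69.2%, while the nearest region of Smad3 was 45.4 kb away. A link between GC content and listed regions was not tested.

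Tdgf1: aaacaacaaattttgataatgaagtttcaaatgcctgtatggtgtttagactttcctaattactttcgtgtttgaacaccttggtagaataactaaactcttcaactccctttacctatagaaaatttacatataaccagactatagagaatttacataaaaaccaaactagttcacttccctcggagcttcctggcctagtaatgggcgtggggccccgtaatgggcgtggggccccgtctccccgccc

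The antagonist genes Lefty1 and Lefty2 are neighbours on chromosome 1 and shared the same asynchronous regions. Lefty1 spans 180935022 to 180938401 and Lefty2 spans 180893108 to 180899107; their strand was not used here. The mitotic list had 0 regions within 50 kb of either. The asynchronous list had 3, at 180888572 to 180889090, 180924645 to 180925214 and 180933608 to 180934114. The first lay 4.28 kb from Lefty2 and 46.2 kb from Lefty1. The second lay between the genes, 25.8 kb from Lefty2 and 10.1 kb from Lefty1, and the third, also between them, 34.8 kb from Lefty2 and 1.16 kb from Lefty1. Each gene thus had 1 region within 5 kb of its lower end.

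The regions of the Lefty locus were wide. They measured 519, 570 and 507 bp, at percentiles 92.7, 95.6 and 91.7 of the asynchronous list, and a region of 509 bp followed 97.1 kb beyond Lefty1. Width is no measure of binding strength. Of all protein-coding genes, 7.35% had at least 3 asynchronous regions within 50 kb; Lefty1 and Lefty2 count as 2 genes with the same 3 regions, so they are not separate cases. The nearest protein-coding gene of each of the 3 regions was a Lefty gene. Lefty1 and Lefty2 are similar in sequence, and the handling of reads that fit both is not given in the sources used here.

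Among the Smads, the inhibitory Smad7 had 0 mitotic and 4 asynchronous regions, the most of the 10 genes. Counting only regions wider than the list median, Smad7 had 2, fewer than the 3 of Lefty1 and Lefty2. At least 4 were found at 3.08% of all protein-coding genes. Smad7 lies on chromosome 18 at 75367365 to 75395935. Below the gene were asynchronous regions at 75345064 to 75345293, 75360811 to 75361180 and 75366787 to 75367000, which lay 22.2, 6.37 and 0.472 kb from the span. The last was the nearest region to any of the 10 genes. It was narrow (214 bp, percentile 19.3), whereas the region at 6.37 kb was 370 bp wide (percentile 72.8). The fourth, at 75441872 to 75442314, lay 46.2 kb above Smad7 and inside Ctif, a translation factor gene, where 2 further regions followed 54.0 and 69.2 kb from Smad7.

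The receptor-regulated Smads had fewer listed regions than Smad7. Smad3 (chromosome 9, 63646766 to 63757994, minus strand) had 0 mitotic regions and 1 asynchronous region, 45.4 kb upstream at 63803231 to 63803585, with no other protein-coding gene within 50 kb of it. Another, of 183 bp, the smallest width in the list (percentile 2.23), was 86.9 kb away on the other side. Smad2 (chromosome 18, 76241090 to 76311748) had 0 mitotic and 0 asynchronous regions, and its nearest asynchronous region, also 183 bp wide, was 115 kb away. Smad2 and Smad3 span 70.7 and 111 kb, and long genes are more often near a region: of protein-coding genes with a span over 50 kb, 62.3% had an asynchronous region within 50 kb and 40.4% had one inside. Neither Smad2 nor Smad3 had a listed region inside.

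Skil and Id1 had 0 mitotic regions and 1 asynchronous region each within 50 kb, as did the ligand genes and Smad3. The region of Skil (chromosome 3, 31095058 to 31122923), which encodes the corepressor SnoN, lay 5.53 kb from the gene at 31089315 to 31089744 and was 430 bp wide, at percentile 83.1. A further one, 88.0 kb away, was inside Prkci. The region of Id1 (chromosome 2, 152736251 to 152737410), which encodes an inhibitor of basic helix-loop-helix factors, lay 7.87 kb from the gene at 152728187 to 152728586, with 400 bp and percentile 78.5. Id1 was its nearest gene among 5 within 50 kb. Of all protein-coding genes, 20.6% had an asynchronous region as near as that of Skil and 22.2% one as near as that of Id1. Others lay 64.5 kb from Id1, inside H13, and 83.1 kb from Id1, inside Bcl2l1.

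**Figure D2:**
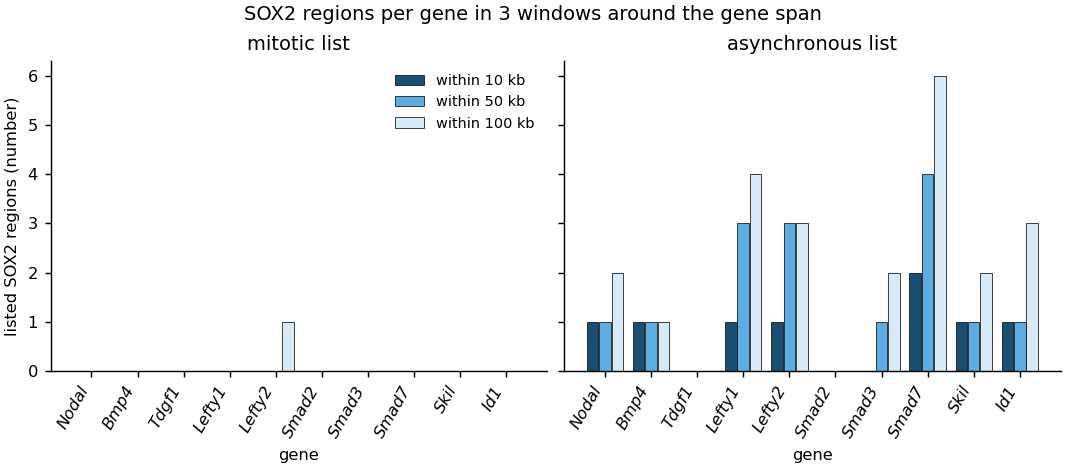
Number of listed SOX2 regions within 10, 50 and 100 kb of each gene's span, in the mitotic list (left) and the asynchronous list (right). The only mitotic count above 0 is 1 region for Lefty2 within 100 kb, while Smad7 has 2, 4 and 6 asynchronous regions in the 3 windows.

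The 8 genes with an asynchronous region held 15 pairs of a gene and a region, made by 12 distinct regions. The nearest gene was one of the 10 for 11 of the 12 regions; the exception was the region inside Ctif. By distance, 8 of the 12 lay within 10 kb of a listed gene, 5 within 5 kb and 4 within 2 kb, the last at Nodal, Bmp4, Lefty1 and Smad7. For the nearest gene and for these distances, no share over all regions was taken, so these counts have no comparison. Just inside the window were Smad3 at 45.4 kb and Lefty1 and Smad7 at 46.2 kb. Just outside were further regions of Smad7 at 54.0 kb, Id1 at 64.5 kb and Nodal at 66.6 kb. Within 10 kb, 7 of the 10 genes had an asynchronous region, against 23.8% of all protein-coding genes. Within 100 kb the numbers were 1 of 10 for mitotic and 8 of 10 for asynchronous regions, against 1.41% and 62.4% of all protein-coding genes. The nearest asynchronous region was at a median of 4.91 kb for the 10 genes and 62.0 kb for all protein-coding genes.

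Longer genes have larger windows, so the counts were also set beside genes of like span. Of the 6 genes with a span under 10 kb, which include both ligands and both Lefty genes, 5 had an asynchronous region within 50 kb, against 34.0% of all protein-coding genes of that class. Both genes of 10 to 50 kb, Smad7 and Skil, had one, against 46.4%, and 1 of the 2 longer ones, Smad3, against 62.3%.

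No region overlapped the span of any of the 10 genes. An asynchronous region lay inside 14.8% of all protein-coding genes, with 2.62% of those under 10 kb, 11.4% of those of 10 to 50 kb and 40.4% of longer ones. Over all protein-coding genes, 30.1% of 16857 pairs of a gene and an asynchronous region within 50 kb had the midpoint inside the gene. The share depends on the span, which had a median of 7.26 kb for the 10 genes and 17.2 kb for all: among genes with a span under 10 kb, it was 5.47%. The 12 regions were 214 to 570 bp wide, with a median of 415 bp, against 289 bp in the whole asynchronous list, and 9 of them were wider than that value. Each of the 12 had a single listed summit, as did most regions of the list, where only 181 of 10532 entries repeated coordinates.

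**Figure D3:**
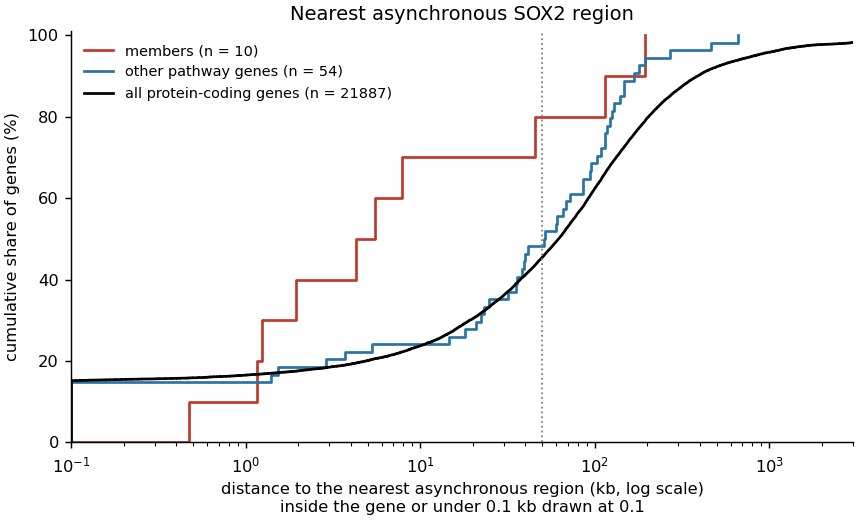
Cumulative share of genes in percent by the distance to the nearest asynchronous region in kb, on a log axis, for the 10 listed genes, 54 other genes of the pathways and all 21887 protein-coding genes. The dotted line is 50 kb, which 80% of the listed genes, 48.1% of the other pathway genes and 45.5% of all genes reach; 7 of the 10 lie under 10 kb but none holds a region inside.

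The peak names set a limit on the counts of 0. Peaks are numbered along the genome in both lists, and the numbers run to 131 in the mitotic and 15590 in the asynchronous list, while 47 mitotic and 5239 asynchronous numbers do not occur among the entries used here. A gap in the numbers between neighbouring listed regions is read here as a peak that was numbered but is not in the list. The asynchronous list has such gaps at these genes: 3 numbers are absent across Tdgf1, 3 across Smad2 and 2 across Smad3, and 1 each across Nodal, Lefty1, Smad7, Skil and Id1. Across the spans of Bmp4 and Lefty2 the numbers run on without a gap. In all, 8 of the 10 spans lay across an absent number, as did 58.0% of the 17969 protein-coding genes without a listed region in the span and with one on either side. Between the regions that flank the windows of the 10 genes, 13 asynchronous numbers are absent; whether any of these peaks lay in a window cannot be told, so 0 at Tdgf1 and Smad2 means no listed region.

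Over the whole lists, 35.9% of mitotic and 33.6% of asynchronous numbers are absent. No mitotic number is absent between the listed regions on either side of the windows of Bmp4, Lefty1, Lefty2, Smad2, Smad3, Smad7, Skil and Id1, which makes 8 of the 10. Most of the 54 other pathway genes were alike in this: 6 had an absent mitotic number there and 4 lay beyond the last listed number. No share over all genes was taken. At Nodal 5 numbers are absent in the wide stretch between its flanking mitotic regions, and at Tdgf1 no later mitotic number is listed. The mitotic region nearest to the group lay at chromosome 1, 180793071 to 180793198, 142 kb from Lefty1 and 100.0 kb from Lefty2. Its nearest gene was H3f3a, 9.43 kb away, and the nearest asynchronous region, the one beside Lefty2, was 95.4 kb away. The other 8 genes had their nearest mitotic region 6.24 Mb (Smad3) to 55.8 Mb (Skil) away.

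With so few mitotic regions, the counts of 0 carry little information. For 0 of 10 genes, 3 counts of the total set a limit of 30%, and the exact (Clopper-Pearson) 95% upper limit is 30.8%. Seen from the regions, 0 of 84 mitotic regions (limit of 3 counts, 3.57%) and 12 of 10351 asynchronous ones, or 0.116%, lay near the 10 genes. At the asynchronous share, 84 regions would give 0.0974, so a count of 0 cannot tell a loss of SOX2 at these genes in mitosis from a retention. That share comes from a list with a stricter q-value tag (0.01, against 0.05 for mitotic cells). The limits cover counting error only and are no test, since genes listed by role are not random draws. The windows of Lefty1 and Lefty2 also overlap.

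The wider pathway was examined through 54 other genes, listed by their roles in Nodal, activin, TGF-beta and BMP signalling. None had a mitotic region within 50 kb, where 3 counts of the total set a limit of 5.56%, and 26 had an asynchronous one. The asynchronous share, 48.1% (exact 95% interval 34.3 to 62.2%), was near the 45.5% of all protein-coding genes. The interval covers counting error only and is no test, since genes listed by role are not random draws. Within 10 kb the share was 24.1%, against 23.8% of all. Counting each region only for its nearest gene, 18 of the 54 genes had one within 50 kb. No share over all genes was taken under that rule. The target genes had the highest share among roles with more than 2 genes: 6 of 9 had an asynchronous region within 50 kb and 5 of 9 within 10 kb. Of 10 further ligands, 5 had one within 50 kb and 0 within 10 kb, and of 12 receptors and co-receptors 6 and 3. The extracellular antagonists had 2 of 8, the other Smads 2 of 5, the nuclear partners and corepressors 4 of 8 and the convertases 1 of 2. These labels are loose. Bambi was placed with the extracellular antagonists, and Smurf1 and Smurf2 with the nuclear partners and corepressors, and none of them had an asynchronous region within 50 kb.

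**Figure D4:**
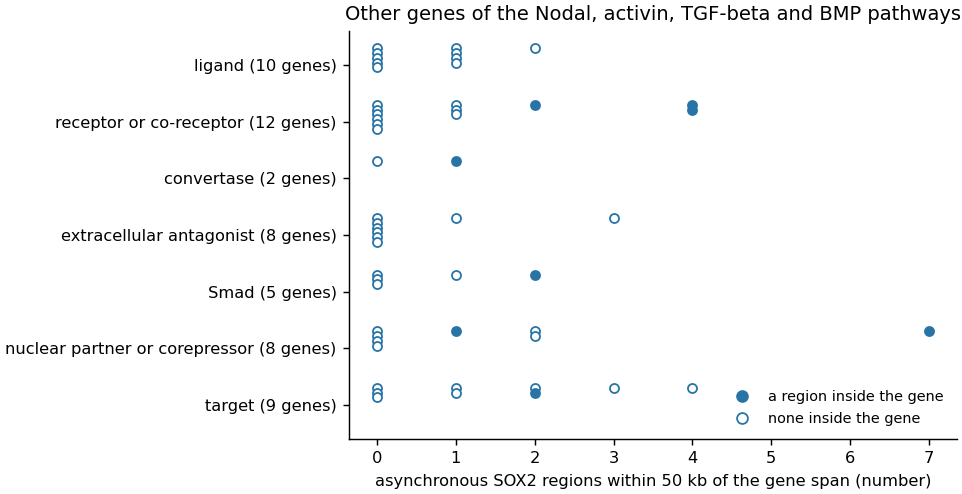
Number of asynchronous SOX2 regions within 50 kb of each of 54 other pathway genes, by role; each circle is a gene, filled where a region lies inside it. Tgif1 stands at 7, and Acvr1b, Bmpr1b and Id4 stand at 4.

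Of the wider list, Tgif1 was the only gene with more asynchronous regions than Smad7. Tgif1, a corepressor of SMAD2 complexes, had 7, a count of at least 7 that 0.334% of protein-coding genes reached. They included 1 inside the gene and 1 of 851 bp (percentile 99.7) at chromosome 17, 70828166 to 70829016, 15.6 kb away. The region of 851 bp was nearer to Dlgap1, at 7.18 kb. Acvr1b, the type I receptor that Nodal and activin use, had 4, of which 2 were inside the gene, and Bmpr1b, a type I receptor of BMPs, likewise had 4 with 2 inside. Bmpr1b spans 332 kb, and its regions at 17.6 and 35.7 kb lay inside Unc5c. The Acvr1b region at 20.1 kb was nearest to Grasp. Id4 had 4, Fst, which encodes the activin antagonist follistatin, had 3, and Id2 had 3, with the nearest at 3.71, 1.39 and 2.87 kb. The Fst regions at 45.2 and 45.6 kb were nearest to Ndufs4, and the Id2 region at 24.5 kb to Kidins220. These 2 Fst regions were less than 500 bp apart, as were the Tgif1 regions at 11.4 and 11.9 kb. Merging such neighbours would count each pair as 1 region. Smad6, an inhibitory Smad like Smad7, had 2, of which 1 was inside the gene, and Pmepa1, a TGF-beta target, had 2, both inside. Another 5 genes tied with them at 2: Tgfbr3, a co-receptor gene with both regions inside, Bmp7, Foxh1, Trim33 and Gsc. Both regions of Foxh1 were nearest to other genes, Vps28 and Ppp1r16a, and the Gsc region at 37.9 kb was nearest to Serpina3n.

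Farthest from any asynchronous region were Grem1, a BMP antagonist (660 kb), the activin receptor gene Acvr2a (462 kb), Acvr1c (269 kb), Tgfb1 (195 kb), Bmpr2 (178 kb) and the convertase gene Furin (168 kb). No asynchronous number is absent across Acvr2a, whereas 1 to 3 are absent across the other 5. Taking the numbers of asynchronous regions within 10, 50 and 100 kb together, the pathway genes most like Smad7, with 2, 4 and 6, were Id4 with 2, 4 and 5, Bmpr1b with 2, 4 and 4, and Acvr1b with 3, 4 and 4. The summed differences in these 3 counts were 1, 2 and 3.

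Of the promoter windows held for the 54 genes, only those of Bmpr1b were covered by one of the asynchronous regions counted here. The region at chromosome 3, 141931371 to 141931818, was 448 bp wide (percentile 85.8) and lay over 2 internal annotated starts of the gene. The 250 bases before the first of these starts along the gene, at chr3:141931589-141931838 on the minus strand, are shown because 230 of them lie in the SOX2 region. Capitals again mark ACAAAG on either strand, found here 58 to 53 bases before the start and inside the region, and none of the other letters searched was found. The window of the other start, at 141931421 to 141931670, had all its 250 bases in the region and held the same match; it is not printed because part of it lies beyond the first start.

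Bmpr1b: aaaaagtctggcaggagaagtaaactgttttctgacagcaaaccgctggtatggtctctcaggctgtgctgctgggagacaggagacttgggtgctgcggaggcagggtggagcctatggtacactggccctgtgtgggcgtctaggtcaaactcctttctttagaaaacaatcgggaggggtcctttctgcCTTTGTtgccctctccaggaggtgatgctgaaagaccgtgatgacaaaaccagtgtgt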

How the data were processed

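Per the submitters' processing notes, Bowtie2 2.2.1, MACS2 (version not given in the sources used here) and the build mm10 were used. The deposited lists, 1 per condition on 3 pooled replicates per the deposited names, hold peak starts and ends in bp (unit: other) with blacklisted regions taken out; the authors' q-value tags were read as 0.05 (mitotic) and 0.01 (asynchronous). Starts were changed to count from 1, and 181 of 10532 asynchronous entries with repeated coordinates were merged. Gene spans, symbols and promoter sequences came from RefSeq tables of GRCm38.p6; all 10 listed and 54 further genes matched, and 4 of the 10 had a promoter entry (Nodal, Bmp4, Tdgf1 and Smad3). Strand was taken from that table.

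Distances ran from the region midpoint to the gene span, within 50 kb. The genes, lists and motifs were chosen with earlier results of these data known, so no test was made. Percentages over all protein-coding genes stand beside the main counts. All 10 genes are named; others by rule: mitotic region within 50 kb, the 8 highest counts (ties broken by nearest region, then symbol), the 6 farthest without a region, and the nearest gene of each region. Widths are percentiles within a list. Distances and counts were tested on simulated data with Python 3.11.15, numpy 2.4.6, pandas 2.3.3 and scipy 1.17.1. Alternatives were other windows, region edges, transcription starts, wide regions, nearest gene only and other merging. Depth is unknown.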

Additional observations from a re-analysis of the deposited data

How the results depend on the processing

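No paired analysis was possible because each list was called on pooled replicates and holds no value per replicate; for the same reason no replicate could be left out. Of 50 summary counts recomputed under 10 settings, 41 stayed within 1.5 times, and asynchronous regions were found at 7, 8 or, as an upper limit, 10 of the 10 genes under all settings. The 41 include mitotic counts of 0, which narrower windows could not raise. Leaving repeated entries unmerged could not change the counts near the 10 genes, where each region had a single summit. Within 10 kb, 13 other pathway genes had an asynchronous region, and with only regions wider than the median 17 did. Within 100 kb, the mitotic count became 1 listed gene (Lefty2) and 1 other pathway gene, and 20 asynchronous regions lay near the 10 genes. Counting absent peak numbers as regions, a setting chosen after seeing the data, gave upper limits of 25 regions near the 10 genes and 44 other genes for the asynchronous list. For the mitotic list it gave 1 listed gene (Nodal) and 6 other genes, which are no limits, since Tdgf1 and 4 other genes lie beyond the last listed number and were counted as 0. Of 90 counts per gene, 77 stayed within 1.5 times, including those of Tdgf1 and Smad2, which were 0 in each of these settings. The region of Smad3 was outside the windows of 10 and 25 kb, and that of Nodal was not among the wider regions. Lefty1 and Lefty2 fell to 1 each and Smad7 to 2 within 10 kb, Lefty2 to 1 within 25 kb and by nearest gene only, and Smad7 to 2 among the wider regions.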

Other observations

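Eomes, a T-box gene, and Mixl1, a homeobox gene, both of early mesendoderm, were picked with their values in view. Eomes had 0 asynchronous regions within 50 kb but 5 within 100 kb, the nearest at 51.8 kb, and no asynchronous number is absent around its window. The regions at 51.8 and 59.2 kb lay inside Golga4. At least 1 asynchronous region within 100 kb was found at 62.4% of all protein-coding genes, and the share with 5 or more was not taken. Mixl1 lay 96.1 kb from the same mitotic region that was nearest to the Lefty genes, with its nearest asynchronous region 85.5 kb away. Of all protein-coding genes, 1.41% had a mitotic region within 100 kb.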
